A study of Mus musculus with 24 samples.

Results

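The 8 genes described here, Fut8, Ache, Ryr1, Ehd3, Ces2g, Adgrl1, Limch1 and Myl10, were picked from a table of 56748 genes because they differed strongly between KO-labelled and WT libraries, either in HSC or in the mean over 4 blood stem and progenitor populations of the mouse. The choice rested on those differences themselves, with no numeric threshold stated, so the genotype differences of these genes are given as descriptions without a test. All 8 genes passed the filter on low counts, as did 21964 genes in all. Tests are given only for what the choice did not use: whether the genotype difference varied among the 3 progenitor populations, and whether those populations differed from each other within 1 genotype.

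The series holds 24 RNA-seq libraries in 8 groups of 3. Each group is a genotype, WT or KO, in a population labelled HSC (hematopoietic stem cells), MPP1, MPP2 or MPP4 (multipotent progenitors). Every library, WT included, came from mice under tamoxifen, an estrogen receptor ligand commonly used to switch on an inducible Cre recombinase, and the cells were sorted from bone marrow, although the tissue field reads blood. The labels give neither the gene knocked out nor the promoter of a Cre, the strain or age of the mice, the sort markers, or whether libraries are separate or pooled animals. Since nothing says that the 3 libraries of a group are separate animals, p-values reflect the scatter of these libraries alone, and that scatter may be technical. In these bulk libraries, fewer cells of a type and less RNA per cell cannot be told apart.

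The series is titled for P-bodies, cytoplasmic granules in which untranslated RNA and repressor proteins gather and whose assembly needs the RNA helicase Ddx6. The 8 genes belong to no single pathway. They encode enzymes of glycan, acetylcholine and ester chemistry, proteins of calcium release, membrane recycling and cell adhesion, and regulators of myosin, and several of them are best known from muscle, nerve or liver rather than from blood.

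Total counts ran from 2540511 to 3807003 per library, and levels are given as CPM, counts scaled to the size of each library. Ddx6, taken as the likely target from knowledge of the study, had 154 to 319 counts in WT and 194 to 308 in KO-labelled libraries, so it does not check the genotype labels, and these are called KO-labelled throughout. Flt3, which marks lymphoid-primed progenitors usually called MPP4, read 1080 to 1182 CPM in WT libraries labelled MPP2 and 54.5 to 81 CPM in those labelled MPP4. Slamf1, a marker of stem cells and of the usual MPP2, read 7.01 to 9.36 CPM and 34.8 to 53.0 CPM in the same libraries, so these populations go against their labels and are called MPP2-labelled and MPP4-labelled. Flt3 read 407 to 446 CPM in WT MPP1 and 53.6 to 70.65 CPM in WT HSC. With the KO label it read 548 to 603 CPM in MPP1 and 481 to 625 CPM in MPP2-labelled libraries. MPP1 is therefore also a name taken from the labels, and these values do not verify it. Genes expected to be silent in blood also collected counts, which were taken as proportional to gene length, an assumption that was not tested. Among 20 long neuronal genes the counts per kb ran from 0.382 to 1.35 in WT HSC and from 0.0746 to 0.300 in KO-labelled HSC. The background expected for a single gene is therefore rough. From 1970 smell and pheromone receptor genes, the background share of all counts (mean ± SD, n = 3) came to 22.1 ± 1.55% for HSC of the WT and 5.55 ± 0.308% for HSC with the KO label. It was 23.8 and 13.7% for MPP1, 11.5 and 9.38% for the MPP2-labelled and 30.03 and 18.1% for the MPP4-labelled population. Each difference below is therefore given as deposited and, where it matters, after subtracting that background.

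Over the 8 genes and 4 populations, the KO-labelled and WT libraries did not overlap in 25 of 32 cases, 17 of them higher and 8 lower in the KO-labelled libraries. Of all gene and population pairs tested, 36.5% did not overlap. HSC held all 8 genes without overlap, 7 higher and 1 lower, where 53.9% of all genes did not overlap, 23.1% higher and 30.8% lower. In MPP1 it was 8 of 8, 5 higher and 3 lower, against 35.1% of all genes, 17.3% higher and 17.8% lower. The MPP2-labelled population had 5 of 8, 3 higher and 2 lower, against 25.2%, with 11.4% higher and 13.8% lower. The MPP4-labelled one had 4 of 8, 2 in each direction, against 31.7%, with 16.3% higher and 15.4% lower. The median log2 fold change of the 8 genes was 2.09, 1.18, 0.60 and 0.23 for HSC, MPP1 and the MPP2-labelled and MPP4-labelled populations, where the medians of all genes were -0.31, -0.10, -0.07 and -0.08. Because these contrasts chose the genes, nothing is read from those counts. Fut8 and Myl10 were higher without overlap in all 4 populations, as were 3.13% of all genes. For the other genes named below, adjusted p-values are those of the model over all genes, which called 43.1% of genes in HSC, 13.6% in MPP1, 7.90% in the MPP2-labelled and 17.9% in the MPP4-labelled population.

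**Figure D1:**
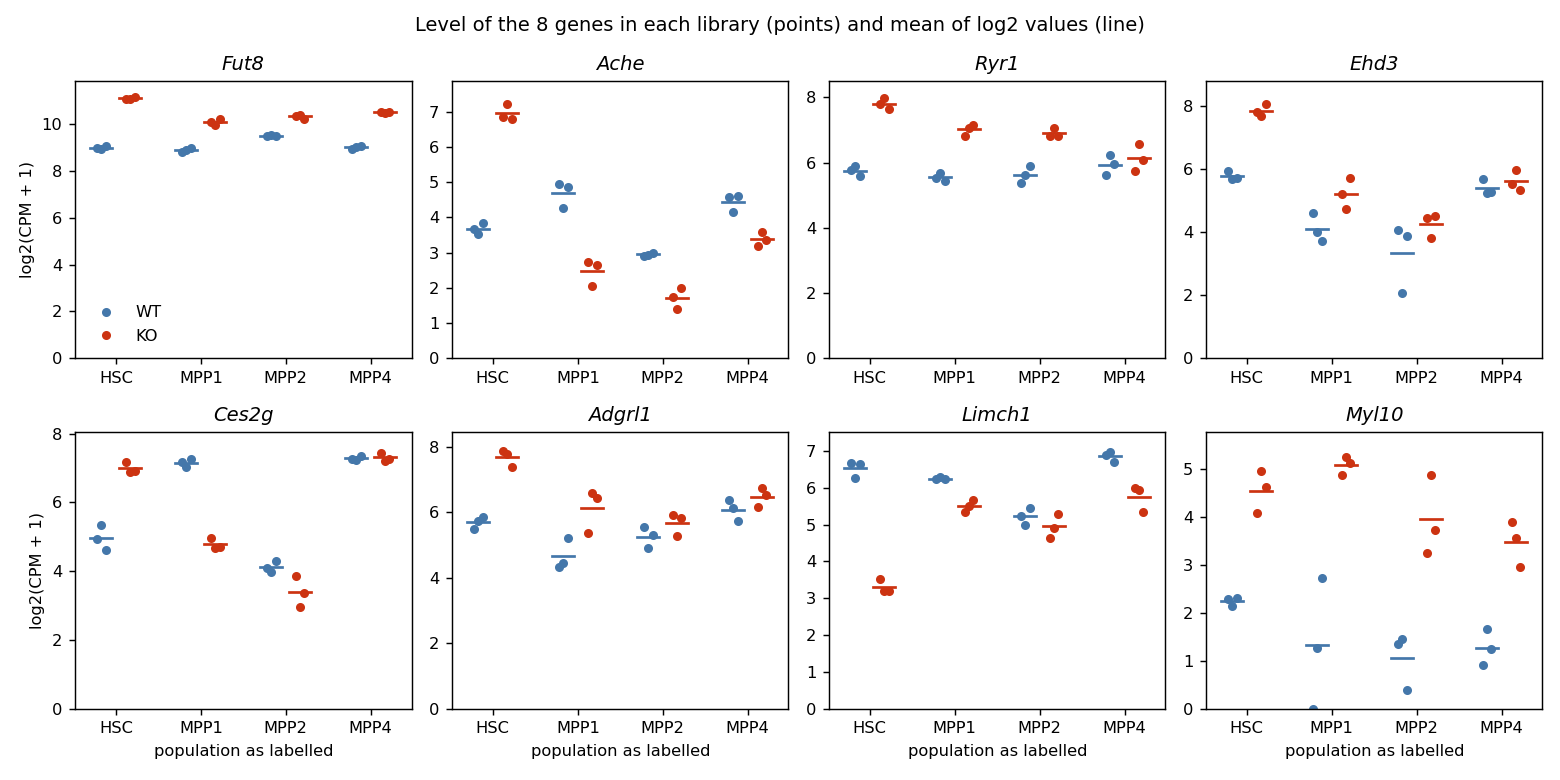
Level of each gene as log2(CPM + 1) on the vertical axis, by population as labelled, with 1 point per library (3 WT in blue and 3 KO-labelled in red per population) and a line at the mean of the log2 values. Fut8 and Myl10 are higher in the KO-labelled libraries of all 4 populations, whereas Ache lies above WT in HSC and below it in the other 3 populations.

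Fut8 (ENSMUSG00000021065.17) encodes the fucosyltransferase that adds core fucose to the innermost sugar of N-glycans, a change that alters how many surface receptors signal. It was higher in every KO-labelled library than in any WT library of its population. In HSC, Fut8 read 503, 490.2 and 545 CPM in the WT libraries and 2194, 2165 and 2308 CPM in the KO-labelled libraries. The MPP1 values were 455, 485 and 511 CPM in WT and 1097, 1015 and 1213 CPM in KO-labelled libraries. The replicates were close to each other, and the genotypes lay far apart. MPP2-labelled WT libraries had 718, 738 and 726 CPM, and their KO-labelled counterparts 1317, 1361 and 1218 CPM. MPP4-labelled WT libraries had 492, 529 and 534 CPM, and their KO-labelled counterparts 1497, 1443 and 1491 CPM.

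The KO-labelled minus WT difference of Fut8 on the log2 scale (± SE, 3 libraries against 3) was 2.12 ± 0.07 for HSC, 1.20 ± 0.07 for MPP1, 0.84 ± 0.07 for the MPP2-labelled and 1.51 ± 0.07 for the MPP4-labelled population. Background made up at most 9.15% of its counts in any group, and after subtraction the differences were 1.68, 0.95, 0.71 and 1.25. The size of the difference varied among the 3 progenitor populations (adjusted p = 1.2e-05 by the quasi-likelihood test of edgeR, adjusted after Benjamini and Hochberg, and 0.00825 after subtraction). That test called 3 of the 8 genes and 6.15% of all genes. The difference was larger in MPP4-labelled than in MPP2-labelled libraries by 0.67 ± 0.10 (adjusted p = 3.26e-06 in edgeR), in a comparison that called 4.99% of all genes. It was smaller in MPP2-labelled than in MPP1 libraries by 0.36 on the log2 scale (SE 0.10, edgeR adjusted p = 0.0208), a call shared by 4.07% of all genes and lost after subtraction (adjusted p = 0.316).

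Within the WT libraries the level of Fut8 was highest in the MPP2-labelled group, at 727 ± 10.2 CPM (SD, n = 3), and the 3 other WT groups formed a chain of overlapping ranges from 484 to 518 CPM. Among WT MPP1, MPP2-labelled and MPP4-labelled libraries Fut8 differed (adjusted p = 2.42e-09 in edgeR), in a test that called 6 of the 8 genes and 25.1% of all genes. That call weakened to an adjusted p of 0.0165 after receptor-based subtraction and was lost, at 0.0564, when the background was taken from 20 long neuronal genes. In the KO-labelled libraries the order was HSC, MPP4-labelled, MPP2-labelled, MPP1, with no overlap between neighbours. The 3 progenitor groups differed there as well (adjusted p = 3.66e-05 in edgeR, in a test that called 7 of the 8 genes and 21.2% of all genes).

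Markers of mast cells and basophils were examined beside Fut8. The sum of 8 of them was 234 CPM in WT HSC and 498 CPM in KO-labelled HSC, 102 and 290.3 CPM in MPP1, 117 and 588 CPM in the MPP2-labelled pair and 313 and 639 CPM in the MPP4-labelled pair. The sums did not overlap between genotypes in any population, and Cma1 and Prss34 were at 0 in KO-labelled HSC. Of the 7 genes that passed the filter on low counts, those higher without overlap numbered 1 in HSC, 2 in MPP1, 7 in the MPP2-labelled and 6 in the MPP4-labelled population, and those lower 3, 1, 0 and 1. The 1 gene in HSC was Gata2, a factor that stem cells also express, with 201 to 212 CPM in WT and 427 to 536 CPM with the KO label. With it in MPP1 was Il1rl1, a receptor of interleukin signals, at 25.1 to 41.2 and 174 to 189 CPM. The part of such cells in the level of Fut8 was not tested.

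Among the genes whose level followed that of Fut8 most closely over the 24 libraries were Mat2a, which makes the methyl donor S-adenosylmethionine, and Osbpl8, an oxysterol-binding protein. Their Pearson r of log2 CPM was 0.941 each, among the 3 best of 16326 genes, over libraries that share the same groups and background. Of the other genes of fucosylation and N-glycan branching, 22 were tested, and in HSC 7 passed the test as higher and 3 as lower in the KO-labelled libraries, against 18.3% and 24.8% of all genes. Their median log2 difference was 0.14, beside -0.31 for all genes, and after subtraction 2 of 20 passed as higher and 2 as lower, where 4.60% and 4.43% of 18585 genes did. Mgat5, which starts a branch of complex N-glycans, was 0.94 ± 0.08 higher in KO-labelled HSC, and Gmds, the first enzyme of GDP-fucose synthesis, 0.92 ± 0.09 higher (adjusted p = 3.27e-13 and 1.03e-10 in edgeR). After subtraction these fell to 0.52 and 0.72 (adjusted p = 0.000144 and 2.83e-05 in edgeR). Slc35c1, which carries GDP-fucose into the Golgi, was 1.03 ± 0.22 higher (adjusted p = 0.000165 in edgeR, and 0.15 after subtraction).

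Ache (ENSMUSG00000023328.15) encodes acetylcholinesterase, which breaks down acetylcholine at synapses and is also carried by red cells and, in rodents, by megakaryocytes. It was higher with the KO label in HSC and lower with it in the 3 progenitor populations. The WT HSC libraries held 42, 40 and 47 counts of Ache (11.6, 10.6 and 13.4 CPM), and the KO-labelled HSC libraries 331, 436 and 352 counts (115, 147 and 111 CPM). All 3 KO-labelled libraries were far above WT there. MPP1 showed the opposite order, with 29.99, 18.2 and 28.0 CPM in WT and 5.68, 3.16 and 5.26 CPM in KO-labelled libraries. WT MPP2-labelled libraries had 6.55, 6.62 and 7.01 CPM, and KO-labelled ones 2.33, 1.61 and 3.00 CPM, which rest on only 5 to 8 counts. The MPP4-labelled libraries read 23.0, 16.7 and 23.6 CPM in WT and 8.08, 11.1 and 9.28 CPM with the KO label. In none of the 3 progenitor populations did the ranges overlap, and in each the KO-labelled libraries were the lower ones. Ache overlaps Gm42456, a noncoding RNA gene on the opposite strand, which held 0 to 35 counts in a library. Without a strand setting in the labels, reads of Gm42456 cannot be told from those of Ache.

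On the log2 scale the Ache difference was 3.39 ± 0.33 (SE, 3 libraries against 3) for HSC, -2.43 ± 0.35 for MPP1, -1.54 ± 0.42 for the MPP2-labelled and -1.15 ± 0.32 for the MPP4-labelled population. After subtraction these were 2.98, -2.96, -1.97 and -1.56, so both directions were also found without the background. Among the 3 progenitor populations the difference did not pass the test of variation (adjusted p = 0.217 in edgeR), and the MPP4-labelled minus MPP1 estimate was 1.28 ± 0.47. The contrast between HSC and the progenitors was not tested, since HSC chose the genes. In HSC, 14 of 21964 genes had a larger log2 difference than Ache, a place that follows from the choice of the genes.

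The 8 groups ordered by the level of Ache began with KO-labelled HSC at 125 ± 19.8 CPM (SD, n = 3), followed by WT MPP1 at 25.4 ± 6.28 and WT MPP4-labelled at 21.1 ± 3.82 CPM, the last pair overlapping. WT HSC at 11.9 ± 1.43 and the KO-labelled libraries of the MPP4-labelled population at 9.48 ± 1.51 CPM also overlapped, and the lowest group was the KO-labelled libraries of the MPP2-labelled population at 2.31 ± 0.694 CPM. Differences among the progenitors passed the test within WT (adjusted p = 3.97e-05 in edgeR) and within KO-labelled libraries (adjusted p = 0.000507). The WT MPP2-labelled libraries were lower than WT MPP1 (log2 -1.91 ± 0.33, adjusted p = 2.89e-05 in edgeR, with 15.6% of all genes called), and WT MPP4-labelled libraries were above WT MPP2-labelled ones by 1.64 ± 0.33 (adjusted p = 0.000168, with 27.3% called). The call within KO-labelled libraries was lost when only those groups were fitted (adjusted p = 0.153).

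The summed CPM of 13 red cell lineage genes averaged 1079 in WT MPP1 and 191 in KO-labelled MPP1, 472 and 264 in the MPP2-labelled pair, and 1174 and 525 in the MPP4-labelled pair. In HSC the same sum was 313 in WT and 245 in KO-labelled libraries, with 2 of the 13 genes higher without overlap (Gata1 and Epor), 9 lower and 2 overlapping. The sum of 9 megakaryocyte genes was 694 CPM in WT HSC, where Gp1bb was at 0, and 1109 CPM in KO-labelled HSC. It was 256 and 297 CPM in MPP1, 130 and 67.5 CPM in the MPP2-labelled pair and 292 and 196 CPM in the MPP4-labelled pair, so it was higher with the KO label in MPP1, where Ache was lower, and otherwise moved in the direction of Ache. The part of these cell types in the result was not tested.

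The 250 bases upstream of the RefSeq start of Ache are shown because Ache and Ces2g shared the higher level in KO-labelled HSC and the low level in KO-labelled MPP1 (r = 0.724 between them over 24 libraries). The Ache window lies at chr5:137288004-137288253 on the plus strand of GRCm38.p6, an earlier build than the mm39 of the counts, and 73.6% of it is G or C, where the median of 32851 such windows was 52.4%. Capitals mark matches on either strand to the E-box, CACGTG, to the Egr motif, spelled GCGGGGGCG or else GCGTGGGCG, and to the GC box, GGGCGG. Matches of the GC box overlap those of Egr.
Ache: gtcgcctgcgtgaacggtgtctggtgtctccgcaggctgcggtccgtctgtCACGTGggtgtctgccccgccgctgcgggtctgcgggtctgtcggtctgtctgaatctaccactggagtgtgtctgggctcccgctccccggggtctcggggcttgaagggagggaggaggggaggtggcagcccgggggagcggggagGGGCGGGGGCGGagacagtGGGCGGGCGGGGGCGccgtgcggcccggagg
It holds 1 E-box, found in 6.02% of all windows, 2 Egr matches, found in 3.06%, and 4 GC boxes, found in 32.7%. A search for the GATA motif, spelled AGATAA or else TGATAA, gave no match in this window. The same held for the AP-1 motif, spelled TGACTCA or else TGAGTCA, and for the TATA motif, spelled TATAAA. Such matches describe the letters only.

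Chrm3, a muscarinic acetylcholine receptor, followed Ache most closely of 16326 genes (r = 0.927), and Vwf, the von Willebrand factor of platelets and endothelium, was also among the 3 best (0.861). Chrm3 read 147 to 181 CPM in WT HSC and 445 to 469 CPM in KO-labelled HSC, a log2 difference of 1.51 ± 0.15, and differed by -0.70 ± 0.15 in MPP1. Background made up 47.5 to 76.7% of the Chrm3 counts in every group but KO-labelled HSC, where it was 5.25%. After subtraction its HSC difference was 1.82. Of 24 tested cholinergic genes other than Ache, 3 passed as higher and 13 as lower in KO-labelled HSC, with a median of -2.25. Of all genes, 18.3% passed as higher and 24.8% as lower. After subtraction 1 of 17 passed as higher and 0 as lower at the same threshold in edgeR, against 4.60% and 4.43% of all genes. Chat, which makes acetylcholine, was 3.29 lower on the log2 scale in KO-labelled HSC (log2 -3.29 ± 0.65, edgeR adjusted p = 7.19e-05, and 0.0628 after subtraction).

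**Figure D2:**
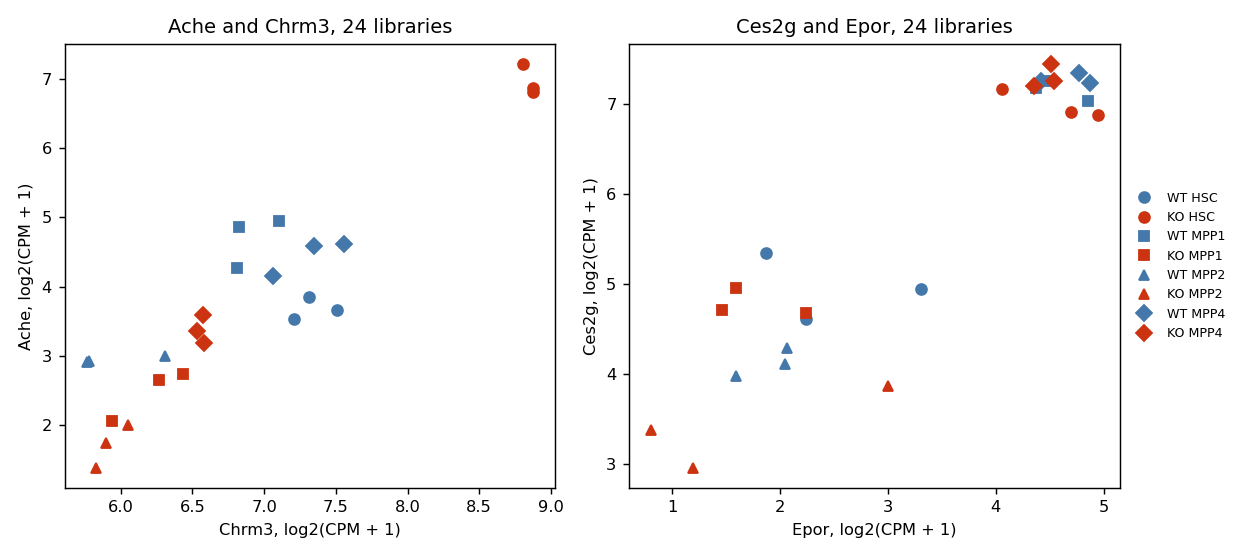
Level of Ache against Chrm3 and of Ces2g against Epor in the 24 libraries, both axes as log2(CPM + 1), blue for WT and red for KO-labelled, with a symbol for each population. KO-labelled HSC (red circles) stands apart at the top right for Ache and Chrm3, and joins WT MPP1 and both MPP4-labelled groups at the top for Ces2g and Epor.

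Ces2g (ENSMUSG00000031877.10) encodes a carboxylesterase, an enzyme that splits esters of drugs and lipids and is best known from liver and gut. Its levels were high in some groups and low in others. WT HSC libraries had 29.9, 39.8 and 23.4 CPM of Ces2g and KO-labelled HSC 144, 117 and 120 CPM. WT MPP1 had 144, 130.02 and 153 CPM, and KO-labelled MPP1 30.1, 24.7 and 25.1 CPM. The KO-labelled HSC libraries thus reached nearly the level of WT MPP1, and the KO-labelled MPP1 libraries that of WT HSC. In the MPP2-labelled libraries the values were low throughout, 16.2, 14.7 and 18.5 CPM in WT and 13.6, 6.76 and 9.37 CPM with the KO label. Both genotypes were high and overlapped in the MPP4-labelled libraries, at 152, 150.0 and 162 CPM in WT and 174, 147 and 152 CPM with the KO label.

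The Ces2g difference was 2.02 ± 0.19 (log2 ± SE, 3 libraries against 3) for HSC, -2.42 ± 0.19 for MPP1, -0.75 ± 0.24 for the MPP2-labelled and 0.03 ± 0.18 for the MPP4-labelled population. After subtraction the values were 1.54, -2.79, -0.94 and -0.34, and the near-zero MPP4-labelled value also turned to -0.14 under median-of-ratios scaling. Ces2g had the strongest evidence of the 8 genes for a genotype difference that varied among progenitor populations (adjusted p = 1.53e-08 in edgeR, rank 65 of 21964, and 4.74e-06 after subtraction). The MPP4-labelled difference lay above that in MPP1 by 2.45 ± 0.26 (adjusted p = 1.48e-08 in edgeR), in a comparison that called 1.51% of all genes. Relative to MPP1, the MPP2-labelled difference was also higher, by 1.67 ± 0.31 (adjusted p = 0.000348 in edgeR).

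Within WT, Ces2g was higher in MPP4-labelled than in MPP2-labelled libraries by 3.23 ± 0.21 (9.38-fold, adjusted p = 1.04e-16 in edgeR), a difference larger than any spread between replicates. WT MPP4-labelled and WT MPP1 libraries differed by 0.12 ± 0.18 (adjusted p = 0.862 in edgeR), and their ranges overlapped. With the KO label, the MPP4-labelled libraries were higher than the MPP2-labelled ones by 4.004 ± 0.22 (adjusted p = 3.25e-18 in edgeR, with 15.5% of all genes called). They were higher than MPP1 by 2.57 ± 0.20 (adjusted p = 9.8e-14 in edgeR, with 9.85% called). Background was at most 6.61% of the Ces2g counts in any group. Markers of liver and gut epithelium summed to 8.07 to 31.6 CPM per group, with Fabp2 at 0 in every group, with 26.5 CPM in WT HSC and 8.07 CPM in KO-labelled HSC. Background made up 56.4 to 123% of these sums, and the part of such cells in the level of Ces2g was not tested.

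The Ces2g window, chr8:104961468-104961717 on the plus strand of GRCm38.p6, is 42.0% G or C and differs from that of Ache in the motifs it holds. Capitals mark TGATAA, and TTATCT, which is AGATAA on the other strand.
Ces2g: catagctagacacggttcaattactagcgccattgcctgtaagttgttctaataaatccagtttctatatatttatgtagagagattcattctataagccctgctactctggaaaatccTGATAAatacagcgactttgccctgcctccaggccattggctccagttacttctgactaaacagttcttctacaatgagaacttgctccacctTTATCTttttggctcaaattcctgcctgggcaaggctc
Both matches are of the GATA motif, present in 16.6% of all windows. No match to the 5 other motifs was found in it.

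The genes most like Ces2g were Epor, the erythropoietin receptor (r = 0.922), Mfsd2b, a transporter of sphingosine-1-phosphate in red cells and platelets (0.912), and Septin8, a cytoskeletal GTPase (0.911). Epor differed by 2.20 ± 0.52 in HSC and by -3.17 ± 0.56 in MPP1, and its highest library held 29.7 CPM. Mfsd2b differed by 1.15 ± 0.24 in HSC and by -2.10 ± 0.26 in MPP1. After subtraction the HSC differences of Epor and Mfsd2b were 1.88 and 0.69, and neither passed in edgeR (adjusted p = 0.0857 and 0.12). Their MPP1 differences after subtraction were -3.76 and -2.52. For Septin8 the subtracted HSC difference was 0.77. These genes were picked for their likeness to Ces2g, itself chosen on its genotype difference. Their own genotype differences are therefore a description, and nothing is read from a test of them. The red cell lineage sums given above were lowest in KO-labelled MPP1 and lower in KO-labelled than in WT HSC, but single genes of that list differed in HSC. Gata1, a transcription factor of red cells, megakaryocytes and mast cells, read 3.05 to 12.3 CPM in WT HSC and 26.5 to 41.6 CPM in KO-labelled HSC, and 21.4 to 24.4 and 0.574 to 4.68 CPM in MPP1, higher and lower in the same populations as Ces2g. Car1, a carbonic anhydrase of red cells, read 20.6 to 28.8 CPM in WT HSC and 4.11 to 4.88 CPM in KO-labelled HSC. Both were named after their values were seen. The part of red cell progenitors in the result was not tested. Ces2g sits between Ces2f and Ces2h, members of the same family between which the authors' counting could split reads of similar sequence, so its level is uncertain to that extent. Both were low, with group means of at most 6.75 CPM, and neither was higher in KO-labelled HSC. Of 20 other esterase genes tested, 1 passed as higher and 10 as lower in KO-labelled HSC (median -2.52). The shares of all genes were 18.3% and 24.8%. After subtraction 0 of 16 passed as higher and 2 as lower in edgeR, against 4.60% and 4.43% of all genes. Nceh1, which hydrolyses neutral cholesterol esters, was the higher one, at 0.49 ± 0.11 (edgeR adjusted p = 0.000653, and 1 after subtraction).

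Ryr1 (ENSMUSG00000030592.19) encodes the calcium release channel of the sarcoplasmic reticulum of skeletal muscle. It was higher with the KO label in all populations but the MPP4-labelled one. In HSC, Ryr1 stood at 53.8, 58.4 and 47.4 CPM in WT and 223, 249.6 and 198 CPM in KO-labelled libraries. MPP1 had 45.6, 49.9 and 42.3 CPM in WT and 113, 133 and 142 CPM with the KO label. The MPP2-labelled libraries had 40.3, 48.1 and 58.0 CPM in WT and 112, 132 and 111 CPM with the KO label. These ranges do not overlap in any of the 3 populations. The MPP4-labelled values, 48.4, 73.6 and 60.8 CPM in WT and 52.7, 94.1 and 67.4 CPM with the KO label, do overlap.

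The differences of Ryr1 were 2.07 ± 0.19 (log2 ± SE, 3 libraries against 3) for HSC, 1.495 ± 0.19 for MPP1, 1.28 ± 0.19 for the MPP2-labelled and 0.22 ± 0.19 for the MPP4-labelled population. Between 24.3 and 44.8% of the WT counts of Ryr1, a long gene, were expected from background, against 2.73 to 23.0% with the KO label, and after subtraction the differences were 2.14, 1.87, 1.41 and 0.21. The MPP4-labelled value was -0.02 without KO-labelled replicate 2 of that population. The genotype difference varied among the 3 progenitor populations (adjusted p = 0.00153 in edgeR, and 0.0148 after subtraction). It was smaller in MPP4-labelled than in MPP1 libraries (log2 -1.27 ± 0.26, adjusted p = 0.00339 in edgeR, and 0.0154 after subtraction). Against MPP2-labelled libraries it was smaller too (log2 -1.06 ± 0.26, adjusted p = 0.00952 in edgeR), a call lost after subtraction (adjusted p = 0.0738).

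In WT the 4 populations followed each other in overlapping steps from 45.9 ± 3.82 to 61.0 ± 12.6 CPM, and the 3 progenitor groups did not pass the test (adjusted p = 0.205 in edgeR), although they did under median-of-ratios scaling (0.0428) and in DESeq2 (0.0279). With the KO label they did pass (adjusted p = 0.000859 in edgeR), and the MPP4-labelled ones were below MPP1 (log2 -0.86 ± 0.18, adjusted p = 0.000735). The sum of 12 skeletal muscle markers was 49.6 CPM in WT HSC and 12.2 CPM in KO-labelled HSC, with Myod1, the muscle master factor, at 0 in both. Background made up 53.4 to 75.3% of that sum over the 8 groups, and the part of muscle cells in the level of Ryr1 was not tested.

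The genes most like Ryr1 were Rftn1, a lipid raft protein (r = 0.935), Rapgef4, a cyclic AMP sensor that activates Rap (0.896), and Dctd, the dCMP deaminase of nucleotide synthesis (0.884). Rftn1 differed by 0.98, 0.90, 0.57 and 0.14 in the 4 populations in the order used above, and by 0.53, 0.67, 0.46 and -0.18 after subtraction. The neighbour of Ryr1 on the opposite strand, Map4k1, a kinase of blood cells, differed by 0.87 ± 0.16 for HSC, 0.93 ± 0.16 for MPP1, 0.11 ± 0.16 for the MPP2-labelled and 0.77 ± 0.17 for the MPP4-labelled population, an order unlike that of Ryr1. Since the labels give no strand setting, reads of overlapping antisense genes cannot be told from those of the gene itself. The antisense genes annotated across Ryr1 and found in the table held 0 counts in every library. Counting without strand could also leave such genes at 0, so this does not show that antisense reads were absent.

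Of 27 other genes of calcium stores that were tested, 12 passed as higher and 8 as lower in KO-labelled HSC (median 0.35). Over all genes the shares were 18.3% and 24.8%. After subtraction 3 of 25 passed as higher and 4 as lower, against 4.60% and 4.43% of all genes. Atp2a2, the pump that refills the endoplasmic reticulum, was higher by 1.16 ± 0.13 in HSC (adjusted p = 1.69e-09 in edgeR, and 0.000268 after subtraction). Orai2, a plasma membrane channel opened by store depletion, was higher by 1.052 ± 0.13 (adjusted p = 1.02e-08 in edgeR), and by 0.53 after subtraction (adjusted p = 0.017). Ryr2, the cardiac relative of Ryr1, was lower (log2 -1.94 ± 0.18), with 35.7 CPM in KO-labelled and 137 CPM in WT HSC. Its adjusted p in edgeR was 1.47e-11, and 0.0148 after subtraction. The -1.94 lies within the HSC range of the 20 long neuronal genes, -2.79 to -1.79, and the part of background in it was not tested.

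Ehd3 (ENSMUSG00000024065.9) encodes an ATPase that bends membranes and returns receptors from endosomes to the cell surface. In WT it was mainly a gene of HSC and MPP4-labelled libraries. The HSC libraries had 61.0, 50.9 and 51.7 CPM in WT and 225, 207 and 271 CPM with the KO label. In MPP1, Ehd3 had 23.2, 15.1 and 12.3 CPM in WT and 36.1, 25.5 and 51.7 CPM with the KO label. Both populations were without overlap, the second narrowly so. The MPP2-labelled values were 15.9, 3.17 and 13.7 CPM in WT and 20.9, 13.2 and 21.7 CPM with the KO label. The MPP4-labelled values were 50.8, 36.7 and 37.9 CPM in WT and 45.7, 62.0 and 39.6 CPM with the KO label. In both of these the genotypes overlapped.

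The Ehd3 difference was 2.11 ± 0.28 (log2 ± SE, 3 libraries against 3) for HSC, 1.16 ± 0.31 for MPP1, 0.77 ± 0.34 for the MPP2-labelled and 0.23 ± 0.29 for the MPP4-labelled population, and 1.67, 1.19, 0.86 and -0.05 after subtraction, the last with the sign turned. Its variation among progenitor populations did not pass the test (adjusted p = 0.387 in edgeR). The levels themselves did vary among the progenitors, in WT (adjusted p = 7.71e-06 in edgeR) and with the KO label (adjusted p = 0.00208). WT MPP4-labelled libraries were above WT MPP2-labelled ones by 1.94 ± 0.32 (adjusted p = 6.2e-06 in edgeR) and above WT MPP1 by 1.31 ± 0.30 (adjusted p = 0.00326, with 6.37% of all genes called). KO-labelled HSC, at 235 ± 32.8 CPM (SD, n = 3), was apart from all other groups, of which the next, WT HSC at 54.5 ± 5.57 CPM, overlapped the KO-labelled libraries of the MPP4-labelled population.

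Nol4l, a nuclear protein (r = 0.92), Vamp5, a vesicle fusion protein (0.919), and Med12l, a subunit of the Mediator complex (0.876), were most like Ehd3. As deposited, each differed most in HSC, by 1.18, 1.10 and 0.98, and by at most 0.47 in the other populations. After subtraction the HSC values were 0.81, 0.57 and 0.61. The neighbours Galnt14, which starts O-glycans, and Xdh, xanthine dehydrogenase, were both lower in KO-labelled HSC as deposited (log2 -2.41 ± 0.36 and -2.33 ± 0.48), opposite to Ehd3. Both values lie within the HSC range of the 20 long neuronal genes, -2.79 to -1.79. No subtracted value is given for these neighbours, and the part of background was not tested. Of 25 other endocytic recycling genes, 7 passed as higher and 3 as lower in HSC (median 0.31), against 18.3% and 24.8% of all genes. After subtraction 0 passed in either direction in edgeR, where 4.60% of all genes passed as higher and 4.43% as lower. Snx1, a sorting nexin, was 0.57 ± 0.20 higher in HSC (adjusted p = 0.017 in edgeR, and 0.635 after subtraction).

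Adgrl1 (ENSMUSG00000013033.17) encodes latrophilin 1, an adhesion G protein-coupled receptor that binds teneurins and FLRT proteins on neighbouring cells. In HSC it read 44.1, 52.0 and 57.1 CPM in WT and 235, 220.2 and 164 CPM in KO-labelled libraries. MPP1 had 19.1, 21.1 and 36.1 CPM in WT and 40.4, 95.6 and 86.5 CPM with the KO label. The genotypes were apart in both, but in MPP1 the lowest KO-labelled library stood close to the highest WT library. The MPP2-labelled values, 45.9, 29.4 and 38.6 CPM in WT and 59.0, 37.7 and 56.2 CPM with the KO label, overlapped. So did the MPP4-labelled values, 81.3, 69.2 and 51.9 CPM in WT and 70.2, 105 and 90.9 CPM with the KO label.

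Adgrl1 differed by 2.01 ± 0.25 (log2 ± SE, 3 libraries against 3) for HSC, 1.54 ± 0.26 for MPP1, 0.42 ± 0.26 for the MPP2-labelled and 0.39 ± 0.24 for the MPP4-labelled population, and by 1.66, 1.58, 0.34 and 0.12 after subtraction. Whether the difference varied among the 3 progenitor populations lay at the threshold, with an adjusted p of 0.0511 in edgeR, 0.0376 in DESeq2 and 0.145 after subtraction. Without WT MPP1 replicate 3 it was 0.0094 in edgeR. Over the 24 edgeR fits that each left out 1 library, it ran from 0.00334 to 0.219. The lowest value came without KO-labelled MPP1 replicate 1 and the highest without KO-labelled MPP1 replicate 2. In 15 of the 24 fits it stayed above the threshold. The WT progenitors differed (adjusted p = 0.000107 in edgeR), MPP4-labelled above MPP1 by 1.41 ± 0.26 (adjusted p = 0.000149). The KO-labelled progenitors passed narrowly (adjusted p = 0.0447 in edgeR), and neither after subtraction (0.0743) nor without KO-labelled replicate 2 of the MPP2-labelled population (0.222).

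The genes most like Adgrl1 were Frrs1, a ferric reductase (r = 0.87), Arhgef2, a microtubule-bound guanine nucleotide exchange factor (0.854), and Zfp385a, a zinc finger protein (0.85). Frrs1 had 234 to 267 CPM in WT HSC and 441 to 491 CPM in KO-labelled HSC, a log2 difference of 0.88, and 0.38 after subtraction. Among 29 other adhesion receptor and latrophilin ligand genes tested, 6 passed as higher and 19 as lower in KO-labelled HSC (median -1.82), and 1 and 5 of 26 after subtraction, beside the shares of all genes given with the fucosylation list (18.3% and 24.8%, and 4.60% and 4.43% after subtraction). Adgrg1, an adhesion receptor abundant in stem cells, was higher in all 4 populations, by 0.71 ± 0.05, 0.89 ± 0.05, 0.38 ± 0.05 and 1.24 ± 0.05 (adjusted p = 1.99e-14, 6.45e-17, 8.75e-07 and 2.24e-21 in edgeR). After subtraction these fell to 0.17, 0.57, 0.24 and 0.87 (adjusted p = 0.0401, 8.86e-08, 0.00578 and 7.07e-11 in edgeR). The latrophilin ligand Tenm2 was lower in KO-labelled HSC (log2 -2.55 ± 0.14, adjusted p = 9.6e-19 in edgeR), with 73.4% of its WT count and 136% of its KO-labelled count expected from background. Adgrl1 overlaps the predicted gene Gm10644 on the opposite strand, which held at most 31 counts in a library.

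**Figure D3:**
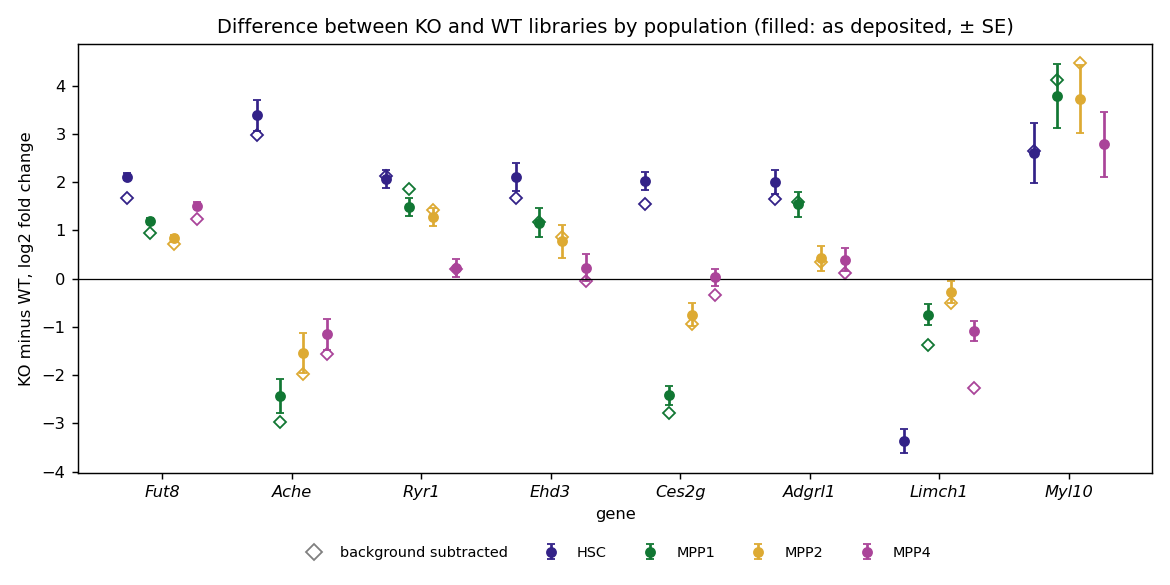
KO-labelled minus WT log2 fold change of each gene in the 4 populations, with filled circles for the counts as deposited (bars are ± SE) and open diamonds after subtraction of the receptor-based background. Ache and Ces2g are the genes with points on both sides of 0 as deposited, and there is no diamond for Limch1 in HSC or Myl10 in MPP4, where a group was not above background.

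Limch1 (ENSMUSG00000037736.21) encodes a protein with LIM and calponin domains that activates non-muscle myosin II, and it was the 1 gene of the 8 that was lower in KO-labelled HSC. WT HSC held 364, 285 and 350 counts of Limch1 (101, 75.6 and 100.01 CPM), and KO-labelled HSC 30, 24 and 26 counts (10.5, 8.11 and 8.21 CPM). WT MPP1 had 73.8, 77.0 and 74.2 CPM, and KO-labelled MPP1 39.4, 44.5 and 50.3 CPM. Both populations were without overlap, lower with the KO label. The MPP2-labelled values overlapped, at 36.5, 30.5 and 43.0 CPM in WT and 24.1, 29.0 and 38.2 CPM with the KO label. The MPP4-labelled libraries, at 117, 125 and 103 CPM in WT and 63.3, 60.8 and 39.3 CPM with the KO label, did not.

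As deposited, the Limch1 difference was -3.37 ± 0.25 (log2 ± SE, 3 libraries against 3) for HSC, -0.74 ± 0.21 for MPP1, -0.27 ± 0.23 for the MPP2-labelled and -1.08 ± 0.21 for the MPP4-labelled population. Most of these counts were expected from background, namely 53.6% in WT HSC, 53.5 to 83.0% in the other WT groups and 75.2 to 83.9% in the KO-labelled progenitors. In KO-labelled HSC the expected background, a mean of 46.6 counts, was 175% of the mean count of 26.7, so no Limch1 signal above background was detectable there and no fold is given after subtraction. For the other populations the subtracted values were -1.37 for MPP1, -0.50 for the MPP2-labelled and -2.27 for the MPP4-labelled population.

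Per kb of gene span, Limch1 had 1.07 counts in WT HSC and 0.0857 in KO-labelled HSC. That was above 18 of 20 long neuronal genes in WT and above 3 of 20 with the KO label. The log2 differences of those 20 genes in HSC ran from -2.79 to -1.79 with a median of -2.25. The Limch1 value of -3.37 was lower than all of them, but Limch1 was chosen on such differences, so nothing is read from that order. In MPP1 and MPP4-labelled libraries the 20 genes had medians of -0.66 and -0.58. The genes most like Limch1 were long genes known from neurons, Tenm2 (r = 0.983), Sdk1 (0.981) and Rbfox1 (0.978). Neuron markers summed to 278 CPM in WT HSC and 46.8 CPM in KO-labelled HSC, with Nefl at 0 in every group, and background was 80.6 to 152% of those sums. The part of neurons in the level of Limch1 was not tested.

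**Figure D4:**
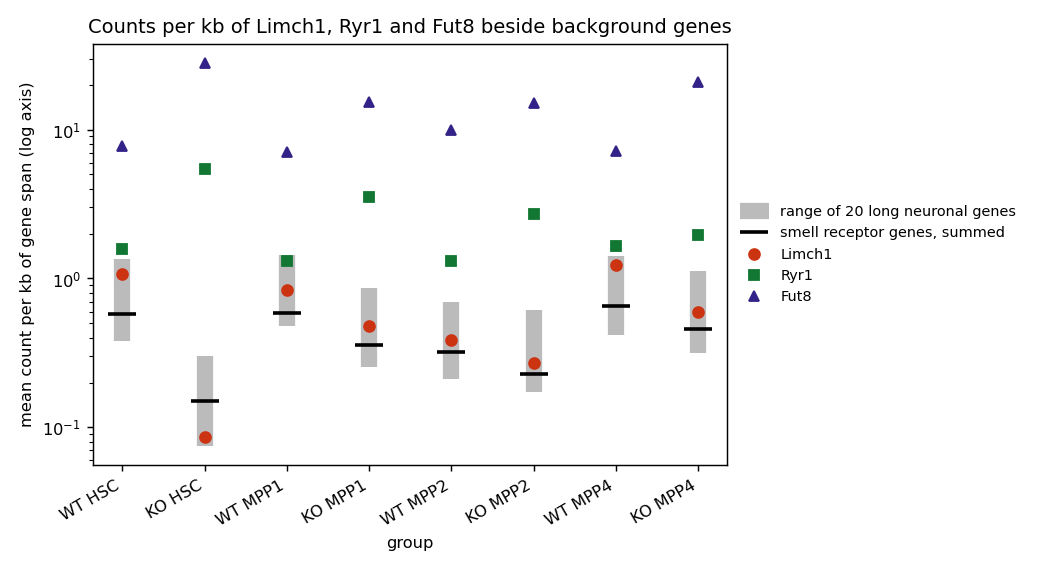
Mean count per kb of gene span (log axis) of Limch1, Ryr1 and Fut8 in the 8 groups, beside the range of 20 long neuronal genes (grey bar) and the summed smell and pheromone receptor genes (black line). Limch1 lies inside the grey range in every group and below the receptor line in KO-labelled HSC, whereas Fut8 lies far above both throughout.

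The WT progenitors differed in Limch1 (adjusted p = 3.13e-07 in edgeR), with MPP4-labelled above MPP2-labelled libraries by 1.65 ± 0.22 (adjusted p = 6.59e-08). After subtraction the first adjusted p was 0.0475 with the receptor genes and 0.14 with the long genes as background. The background share of all counts was likewise higher in WT MPP4-labelled (30.03%) than in WT MPP2-labelled libraries (11.5%). The KO-labelled progenitors passed as deposited (adjusted p = 0.0142 in edgeR) and not after subtraction (0.443). No variation of the genotype difference among progenitors passed the test (adjusted p = 0.253 in edgeR).

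Myl10 (ENSMUSG00000005474.10) encodes a regulatory light chain of myosin first described in precursor lymphocytes. It was nearly absent from WT and present with the KO label in every population. WT HSC held 14, 13 and 14 counts (3.88, 3.45 and 4.0 CPM) and KO-labelled HSC 46, 89 and 75 counts (16.03, 30.1 and 23.7 CPM). WT MPP1 held 0, 5 and 20 counts and KO-labelled MPP1 85, 129 and 116 counts, or 28.4, 37.0 and 33.9 CPM. The single WT MPP1 library with 20 counts, at 5.60 CPM, was the highest of all 12 WT libraries. WT MPP2-labelled libraries held 5, 6 and 1 counts and KO-labelled ones 22, 88 and 33 counts (8.53, 28.3 and 12.4 CPM). WT MPP4-labelled libraries held 3, 8 and 4 counts and KO-labelled ones 50, 36 and 22 counts (13.9, 10.8 and 6.80 CPM). The lowest KO-labelled library, at 6.80 CPM, still lay above the highest WT library.

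The Myl10 difference was 2.61 ± 0.62 (log2 ± SE, 3 libraries against 3) for HSC, 3.79 ± 0.66 for MPP1, 3.72 ± 0.70 for the MPP2-labelled and 2.78 ± 0.68 for the MPP4-labelled population, with a mean of 3.23 ± 0.33. At these WT counts the sizes are imprecise, and the MPP1 value was 5.45 without WT replicate 3, while the MPP2-labelled value was 3.07 without KO-labelled replicate 2. Background accounted for 33.4% of the Myl10 counts in WT HSC, 56.3% in WT MPP1, 63.2% in the WT MPP2-labelled and 105% in the WT MPP4-labelled group, and for 1.70 to 10.03% of the KO-labelled counts. Per kb of span WT HSC held 1.72 counts, above all 20 long neuronal genes. In the WT MPP4-labelled group no Myl10 signal above background was detectable, and no fold is given for it after subtraction. For the other populations the subtracted values were 2.65 for HSC, 4.13 for MPP1 and 4.46 for the MPP2-labelled population. In the mean over populations 7 of 21964 genes had a larger difference, a place that follows from the choice of the genes. In the main fit no variation among progenitors passed a test, whether of the genotype difference (adjusted p = 0.795 in edgeR), within WT (0.608) or with the KO label (0.0755). The last depended on the setting. It passed in DESeq2 (adjusted p = 0.0422) and in an edgeR fit of only those groups (0.0208). In edgeR it also passed without KO-labelled replicate 2 of the MPP2-labelled population (0.0388) or WT MPP1 replicate 1 (0.0414), but not after subtraction (0.443). By their means, all 4 KO-labelled groups, from 10.5 ± 3.57 to 33.1 ± 4.36 CPM (SD, n = 3), were above all 4 WT groups, from 1.20 ± 0.770 to 3.78 ± 0.290 CPM, and neighbours within each genotype overlapped.

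Lymphocyte markers summed to 38.8 CPM for KO-labelled HSC, 409 for MPP1, 8933 for the MPP2-labelled and 1628 for the MPP4-labelled population, where the Myl10 means were 23.3, 33.1, 16.4 and 10.5 CPM. The WT sums were 36.3, 79.7, 1626 and 1373 CPM. In HSC the genotypes overlapped, with 31.0 to 39.7 CPM in WT and 36.59 to 42.65 CPM with the KO label. Of 9 such genes past the filter on low counts, 1 was higher and 4 were lower without overlap in KO-labelled HSC. Ighm, the heavy chain of IgM, alone read 8155 to 8630 CPM in the KO-labelled libraries of the MPP2-labelled population. The mast cell and basophil sums given with Fut8 were higher with the KO label in every population. In HSC, however, only Gata2 of that list was higher without overlap, and 3 genes were lower. The part of these cell types in the level of Myl10 was not tested. Unc5a, a netrin receptor (r = 0.874), and Rapgef4 (0.873) were most like Myl10. Unc5a differed by 1.56, 1.97, 0.64 and 1.07 in the 4 populations. Cux1, a homeobox factor that neighbours Myl10 on the opposite strand, was higher by 1.79 ± 0.07 for HSC, 1.77 ± 0.07 for MPP1, 0.44 ± 0.07 for the MPP2-labelled and 0.51 ± 0.07 for the MPP4-labelled population (adjusted p = 7.99e-24, 1.45e-23, 5.49e-06 and 1.53e-07 in edgeR). The neighbour of Myl10 on the other side, Col26a1, a collagen, was lower in KO-labelled HSC as deposited (log2 -2.58 ± 0.48, adjusted p = 3.06e-05 in edgeR). That value lies within the HSC range of the 20 long neuronal genes, -2.79 to -1.79. No subtracted value is given for it, and the part of background was not tested. Of 26 other genes of myosin light chains and non-muscle myosin, 9 passed as higher and 7 as lower in HSC (median -0.23). The shares of all genes were 18.3% and 24.8%. After subtraction 0 of 24 passed as higher and 4 as lower, against 4.60% and 4.43% of all genes. Myl6, the light chain of non-muscle myosin, was 1.17 ± 0.25 higher in HSC (adjusted p = 0.000177 in edgeR, and 0.0845 after subtraction), and Myh9, a heavy chain, 0.66 ± 0.10 higher (1.37e-06, and 0.267 after subtraction).

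Compared with each other over the 24 libraries, the 8 genes formed no single pattern. Fut8, Ryr1, Adgrl1 and Myl10 ran together, with r from 0.597 to 0.823, and Ehd3 ran closest to Adgrl1 (0.812). Ache and Ces2g followed each other (0.724) and were nearly unrelated to Fut8 (0.132 and -0.02). Limch1 ran opposite to Fut8 (-0.83) and Ryr1 (-0.77). These correlations describe libraries that share 8 groups and their background, and the choice of genes with large genotype differences is part of them. Compared per kb of gene span, the most counts in WT HSC were those of Ces2g, at 14.5, and the fewest those of Limch1, at 1.07, while in KO-labelled HSC Ache led with 53.7 counts per kb, ahead of Ces2g with 48.4, Fut8 with 28.0 and Ehd3 with 25.3.

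One of 4 windows that RefSeq gives for Fut8 is shown because this gene was higher with the KO label in all 4 populations. It is the window listed first in the table, not the most upstream, and lies at chr12:77238489-77238738 on the plus strand of GRCm38.p6 and is 74.8% G or C. Capitals mark the 1 GC box, GGGCGG.
Fut8: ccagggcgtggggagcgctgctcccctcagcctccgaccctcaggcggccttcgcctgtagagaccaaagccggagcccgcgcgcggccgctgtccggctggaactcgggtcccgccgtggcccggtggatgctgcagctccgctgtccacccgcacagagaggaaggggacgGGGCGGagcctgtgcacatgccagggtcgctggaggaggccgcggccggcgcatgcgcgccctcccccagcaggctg
In this window none of the 5 other motifs was matched. The window of Fut8 that lies further upstream, chr12:77237854-77238103, holds 1 match to the GATA motif, as does the Ces2g window with 2, and none to the other 5. No motif was matched in the other two windows.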

How the data were processed

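Gene counts of 24 libraries were analysed in 8 groups, taken from the sample titles. The deposited values are whole-number read counts per gene made by the authors, not normalized. The submitters' processing notes name build mm39, SAMtools 1.12 and DESeq2. Which aligner and counter made the counts, and whether they used strand, is not given in the sources used here. The 8 genes, the gene lists and the marker lists were chosen with earlier results of these data known.

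Of 56748 genes, 21964 passed edgeR's filterByExpr and entered 1 quasi-likelihood fit, each group having its own mean (edgeR 4.0.16, R 4.3.3, TMM scaling, 16 residual degrees of freedom). P-values were adjusted by Benjamini-Hochberg over all genes tested and called below 0.05. An SE was obtained by dividing a log2 fold change, without its sign, by the root of its F statistic. Total counts of 2540511 to 3807003 per library set the precision. Named genes were the 8 genes, the 3 most correlated genes of each (log2 CPM, prior count 2, mean of at least 1 CPM), the nearest protein-coding neighbours, and up to 4 genes per list with the smallest p in KO against WT averaged over populations, of which those described are a part. Some of the most correlated genes are not reported here. Replicate pairs of a group differed beyond sampling noise (chi-square per gene 4.19 to 9.71).

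Background was the counts per kb of gene span of 1970 smell and pheromone receptor genes in each library. It was multiplied by the span of each gene, subtracted, and the rest rounded, with values below 0 set to 0, before a second fit of 18585 genes. Spans came from a GRCm38 annotation holding 91.8% of the identifiers. Promoter sequences are RefSeq's (GRCm38.p6), in which all 8 genes were found. The markers of stroma and myeloid cells were examined too, with summed means of 69.5 to 232 CPM and 53.1 to 2178 CPM over the 8 groups. The sum of the sort markers ran from 2224 to 10570 CPM. Alternatives were median-of-ratios scaling, other count filters, DESeq2 1.42.0, a replicate block, fits of only the groups compared, 2 background estimates and leaving out each library. The code was tested on simulated data.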

Additional observations from a re-analysis of the deposited data

Results flagged for a closer look

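The genotype difference of 3 of the 8 genes varied among the MPP1, MPP2-labelled and MPP4-labelled populations by a test of that variation itself in edgeR's quasi-likelihood model. The adjusted p was 1.2e-05 for Fut8, 0.00153 for Ryr1 and 1.53e-08 for Ces2g. For Fut8 all 3 differences were in the same direction, for Ryr1 the MPP4-labelled ranges overlapped, and for Ces2g the MPP1 and MPP2-labelled differences were negative and the MPP4-labelled one was near 0.

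Ache was higher in all 3 KO-labelled libraries of HSC (log2 3.39) and lower in all KO-labelled libraries of the other 3 populations. Ces2g was higher in all 3 KO-labelled libraries of HSC (log2 2.02) and lower in those of MPP1 and the MPP2-labelled population. The difference between HSC and the other populations was not tested for either gene, since HSC entered their choice. Groups of 3 libraries are too small for a check of single outlying libraries.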

How the results depend on the processing

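Over all genes, only background subtraction and 2 left-out libraries moved a number of called genes by over 1.5 times. With the receptor genes as background, the calls for KO against WT dropped to 1677 of a former 9462 for HSC, 1127 of 2988 for MPP1, 879 of 1735 for the MPP2-labelled and 1378 of 3926 for the MPP4-labelled population, and 4467 of 11689 for their mean. The calls went from 1351 to 723 for variation of that difference among progenitors, 5523 to 2327 among WT progenitors and 4655 to 2269 among KO-labelled ones. With the long neuronal genes, an alternative chosen after seeing the data, the 8 numbers were 1219, 1087, 867, 1257, 3785, 696, 2300 and 2227. The cause was not tested, and fewer genes were fitted (18585 and 18271). Leaving out 1 library gave 1091 to 1811 calls in the MPP2-labelled libraries, the low values being 1133 without WT replicate 2 and 1091 without WT replicate 3.

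Median-of-ratios scaling lowered the median log2 difference of all genes by 0.15 in HSC (to -0.46), by 0.17 in MPP4-labelled libraries and by 0.11 in the mean. The share of higher calls went from 64.0 to 52.2% in MPP1 and from 63.8 to 44.1% in MPP4-labelled libraries. Of the 32 genotype differences of the 8 genes, those that turned sign were Ces2g, Ehd3 and Ryr1 in MPP4-labelled libraries. The number of non-overlapping cases was 24 after either subtraction and 25 to 27 without any 1 library.

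Libraries with the same replicate number did not deviate together (0 of 12 pairs correlated above 0.1, and 9 of 24 libraries correlated best with their own number), so the numbers were not taken as pairs. A replicate block gave 9306 calls in HSC and 1331 for variation among progenitors, and ended 1 call of the 8 genes, Adgrl1 among KO-labelled progenitors (adjusted p = 0.0551 in edgeR). For Myl10, never called in those 2 tests, the leading difference turned sign in the test of variation after subtraction (adjusted p = 0.956 and 0.954) and among WT progenitors without WT MPP1 replicate 3 (0.7, in a range of 0.227 to 0.798 over the libraries left out). Fits of only the groups compared, fits without any of 3 libraries (KO-labelled replicates 1 and 2 of the MPP2-labelled and 1 of the MPP4-labelled population), and subtraction also ended the call of Limch1 among KO-labelled progenitors (0.0511 to 0.527). Low counts of Myl10, Ache in MPP2-labelled libraries and Limch1 in KO-labelled HSC limit their precision.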
